A study of Mus musculus with 16 samples.

Results

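The goblet cell secretory genes described here are 8 of the 21965 genes of the count table: Retnlb, Clca1, Fcgbp, Tff3, Zg16, Agr2, Spdef and Spink4. They were chosen by name, as goblet cell products other than mucins with the transcription factor that directs their production, and each symbol matched 1 Ensembl identifier. RNA-seq was performed on the terminal ileum of 16 male C57BL/6 mice, 8 to 10 weeks old when the diets began, several weeks before the tissue was taken, with 1 library per mouse. The WT PF and WT EtOH groups (n = 4 and 3) were wild-type littermates of the fat-1 PF and fat-1 EtOH mice (n = 4 and 5), which the labels give as Fat1+/- and which carry the fat-1 gene of C. elegans, an n3 fatty acid desaturase expressed in all tissues. All mice received a liquid diet, and in EtOH mice ethanol was raised stepwise to 6% (v/v), held for the last 3 weeks. Pair-fed (PF) mice received maltose dextrin of equal calories instead. Their daily amount of food was matched to the intake of EtOH mice on the day before. The transgene is not a row of the mouse count table, so that genotype could not be checked in these values.

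Goblet cells are secretory cells of the intestinal epithelium that make and release the mucus layer. They arise from the secretory lineage under Atoh1, and Spdef, an ETS-family transcription factor, drives their terminal maturation. Besides the gel-forming mucin Muc2 they secrete proteins that shape the mucus or act on microbes, and the density of goblet cells increases from the proximal small intestine to the colon.

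The genes lie on 6 chromosomes of GRCm38 and all are annotated as protein-coding. Retnlb is at chr16:48816856-48818892 on the plus strand, Agr2 at chr12:35992907-36004087 on the plus strand and Spink4 at chr4:40920052-40931395 on the plus strand. Clca1 is at chr3:145003817-145032776, Tff3 at chr17:31125306-31129646 and Spdef at chr17:27714352-27728955, all on the minus strand. Fcgbp is at chr7:28071236-28120862 on the plus strand and Zg16 at chr7:127050156-127087328 on the minus strand. No exon of a member overlapped an exon of another gene. Of the 10565 windows of 75 bases in Fcgbp transcripts, 316 (2.99%) were shared with 9530053A07Rik, and the other 7 members shared none with another gene, so that reads of Fcgbp alone could in small part be assigned elsewhere.

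Spdef, Agr2 and Retnlb were each highest in the same 2 mice, and the promoters of Agr2 and Spdef are shown for that reason, as 232 and 246 bases before the start of the gene from RefSeq (GRCm38.p6), with letters of searched motifs in capitals.
Agr2, chr12:35992675-35992906, plus strand: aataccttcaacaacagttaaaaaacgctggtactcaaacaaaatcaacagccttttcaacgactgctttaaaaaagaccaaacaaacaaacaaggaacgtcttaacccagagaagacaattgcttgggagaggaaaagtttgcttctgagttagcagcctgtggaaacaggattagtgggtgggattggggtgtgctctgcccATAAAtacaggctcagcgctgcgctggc
Spdef, chr17:27728956-27729201, minus strand: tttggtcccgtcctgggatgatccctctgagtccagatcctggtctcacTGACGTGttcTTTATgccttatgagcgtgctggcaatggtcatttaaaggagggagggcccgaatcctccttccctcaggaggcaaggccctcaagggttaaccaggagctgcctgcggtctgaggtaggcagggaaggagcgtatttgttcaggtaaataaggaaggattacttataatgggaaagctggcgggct
Capitals in the Agr2 promoter mark the core letters bound by CDX factors (TTTAT, here on the opposite strand, at -28 to -24). Capitals in the Spdef promoter mark the unfolded protein response element core (TGACGTG, at -197 to -191) and the CDX core (at -187 to -183). Searched on both strands, TTTAT was present in 37.3% and TGACGTG in 1.65% of 32851 mouse promoters. The TATA box (TATAAA, 12.4% of promoters), the STAT6 palindrome (TTCNNNNGAA, 5.85%), the ER stress response element (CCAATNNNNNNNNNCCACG, 0.113%), the GATA core (GATAA, 22.6%) and the SPDEF core (CCGGAT, 4.94%) were not in these windows. These matches are descriptions of letters and not of bound sites. The promoter of Fcgbp (chr7:28070986-28071235, 250 bases) held none of the searched letters. Only these exact letters were searched, so that related forms, such as other TATA-like letters, can be present in all 3 promoters. No promoter entry was found for Retnlb, Clca1, Tff3, Zg16 and Spink4.

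Libraries held 8422645 to 11438539 counted reads, and 5 of them differed from the rest in genes of gut position, before any result on the members. A list of 12 large intestine genes summed to between 1470 and 3478 CPM (reads of a gene per 1000000 reads of a library) in 13 libraries, to 9515 CPM in WT EtOH replicate 2, and to 14867 and 16946 CPM in the fat-1 EtOH mice with replicate numbers 3 and 4. In the latter pair the 8 Paneth cell genes summed to 122 and 135 CPM, against 8084 to 30268 in the other 14 libraries, so that the markers of this cell type of the ileal crypt were far below all other libraries. The 9 absorptive enterocyte genes summed to 1527 and 1583 CPM in the same pair, against 21003 to 91553 CPM elsewhere. The 7 genes of ileal bile acid handling summed to 493 and 443 CPM in replicates 2 and 4 of fat-1 PF, against 1083 to 8305 CPM elsewhere, and the 10 proximal small intestine genes to 11725.5 and 11866 CPM there. Position genes also moved with the diet as a whole: the proximal list summed to 284 to 11866 CPM in the 8 PF libraries and to 76.1 to 194 CPM in the 8 EtOH libraries. The smooth muscle list, of another cell type and not of position, summed to 1074 to 1690 CPM in PF and 2170 to 4670 CPM in EtOH libraries. The 9 B-cell follicle genes summed to 666 CPM in fat-1 EtOH replicate 5, against 2.68 to 132 CPM in the other 15 libraries. Differences of the members and calls of the gene lists are therefore also given without the libraries concerned where these change them.

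**Figure D1:**
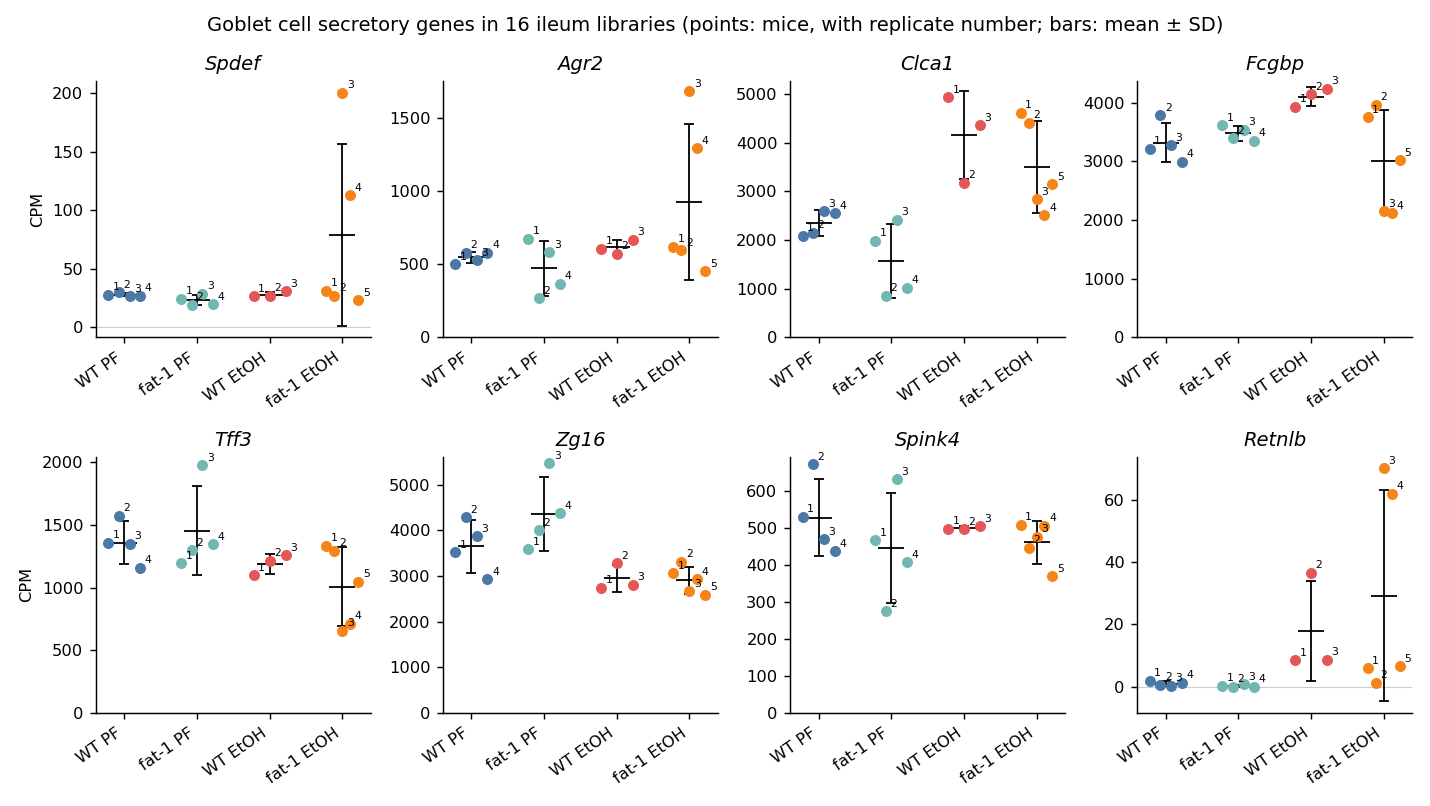
CPM of the 8 genes (y axes, linear) in each mouse of the 4 groups (points, with the replicate number), with the mean and SD of each group as bars. Spdef and Agr2 are high in fat-1 EtOH replicates 3 and 4 alone, Clca1 is higher in EtOH than in PF mice of the same genotype, and Retnlb is near 0 in all PF mice.

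Calls below are those of edgeR at an adjusted p of 0.05 or less unless another tool is named. All 8 genes passed the filter on low counts, and together they held 0.855% to 1.46% of all counts in a library. Retnlb had at most 17 counts in any PF library and passed the filter through its EtOH libraries. Its EtOH calls and its place in counts of called members thus rest on a gene let in by the higher groups. With at least 10 counts required in every library, which Retnlb lacks, edgeR called 4 members in fat-1 mice (4519 of 11675 genes) and 2 in the average (4364 genes). Their summed level in WT mice averaged 11777 ± 1054 CPM with PF (SD, n = 4) and 13559.5 ± 533 CPM with EtOH (SD, n = 3). In fat-1 mice this sum averaged 11794 ± 1985 CPM with PF (SD, n = 4) and 11922 ± 1901 CPM with EtOH (SD, n = 5). The groups overlapped in this sum. In bulk tissue, fewer goblet cells and less RNA per goblet cell cannot be told apart in any of these values.

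Spdef, the regulator of goblet cell maturation, was low in abundance and very even in 14 of 16 libraries. It measured 27.9, 30.0, 26.8 and 27.2 CPM in the 4 WT PF mice, in the order of their replicate numbers, and 24.6, 19.5, 29.0 and 20.0 CPM in the 4 fat-1 PF mice. It measured 26.5, 27.0 and 30.8 CPM in the 3 WT EtOH mice and 31.3, 27.0, 200.3, 113 and 23.2 CPM in the 5 fat-1 EtOH mice. Replicates 3 and 4 of fat-1 EtOH were 6.41 and 3.60 times the highest of the other 14 libraries, and the other 3 fat-1 EtOH mice overlapped with all other groups. In fat-1 mice Spdef was higher with EtOH by a log2 fold change of 1.76 ± 0.54 (SE; adjusted p = 0.0213, edgeR), but without fat-1 EtOH replicates 3 and 4 the difference was 0.25 ± 0.14 (adjusted p = 0.201). With all libraries the exact permutation p was 0.0794. The call was also lost without fat-1 PF replicates 2 and 4 (1.55 ± 0.75, adjusted p = 0.162), with limma voom (0.71 ± 0.40, adjusted p = 0.200) and with the compared groups alone (adjusted p = 0.0828). In WT mice it was 0.01 ± 0.60 (SE; adjusted p = 0.997), and the 2 responses differed by 1.76 ± 0.81 in the interaction test, which did not pass the threshold (adjusted p = 0.595).

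Agr2, a protein disulfide isomerase of the endoplasmic reticulum needed for the folding of Muc2, showed the same 2 high libraries. It measured 499, 581, 528 and 581 CPM in WT PF mice and 675, 268, 582 and 365 CPM in fat-1 PF mice. In WT EtOH mice it measured 605, 573 and 669 CPM, and in fat-1 EtOH mice 619, 597, 1685, 1295 and 452 CPM. The 2 lowest values were those of fat-1 PF replicates 2 and 4 and the 2 highest those of fat-1 EtOH replicates 3 and 4. In fat-1 mice Agr2 was higher with EtOH by 0.98 ± 0.36 on the log2 scale (SE; adjusted p = 0.0444), with groups that overlapped. The exact permutation p was 0.127. The difference was 0.26 ± 0.25 (adjusted p = 0.450) without fat-1 EtOH replicates 3 and 4 and -0.16 ± 0.16 (adjusted p = 0.488) without all 5 libraries that stood apart, so the direction turned. The call was also lost without fat-1 PF replicates 2 and 4 (0.56 ± 0.41, adjusted p = 0.339), with limma voom (0.69 ± 0.28, adjusted p = 0.0761) and with the compared groups alone (adjusted p = 0.130). In WT mice it was 0.17 ± 0.40 (adjusted p = 0.880).

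The high values of Spdef and Agr2 fell in the libraries with the largest sums of large intestine genes, but WT EtOH replicate 2, the third on that list, lay within the range of the other 13 libraries in Spdef (27.0 CPM) and Agr2 (573 CPM). Car1, a carbonic anhydrase typical of colon epithelium, measured 11157 and 12208 CPM in this pair, 4041 CPM in WT EtOH replicate 2 and at most 79.1 CPM in the other 13. Retnlb differed from these in that its 3 highest libraries (70.3, 62.2 and 36.6 CPM) were the 3 with the largest sums, WT EtOH replicate 2 included. The part of the large intestine genes in the levels of Spdef, Agr2 and Retnlb was not tested.

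**Figure D2:**
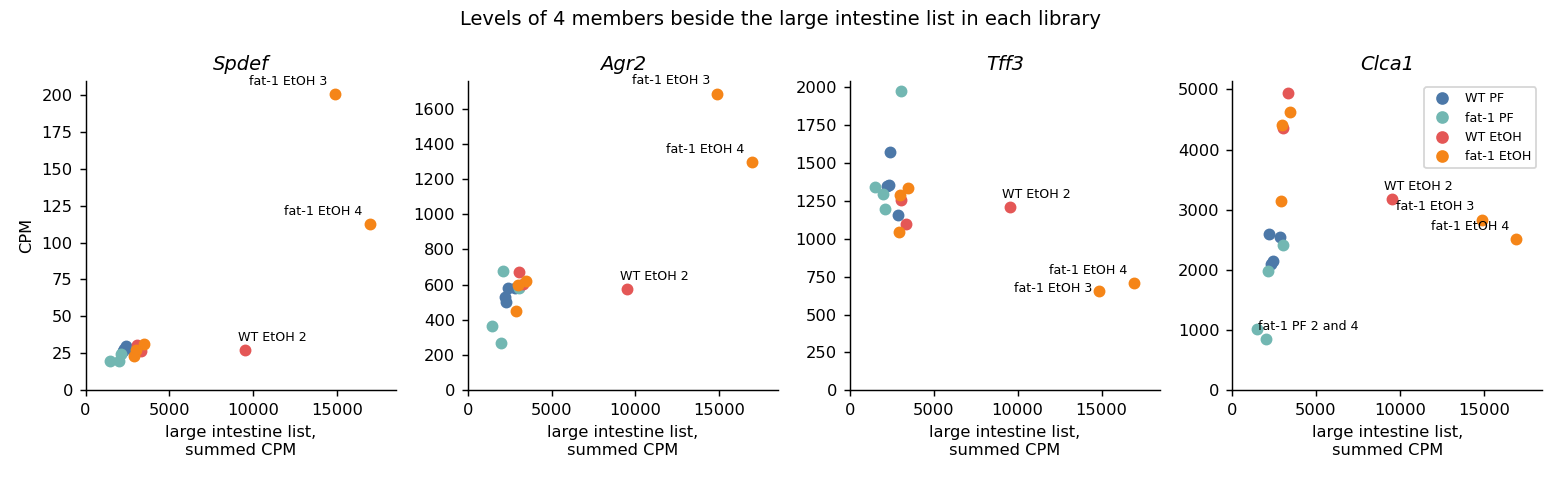
CPM of Spdef, Agr2, Tff3 and Clca1 (y axes, linear) against the summed CPM of 12 large intestine genes (x axes, linear) in each of 16 libraries, coloured by group. Spdef and Agr2 are highest and Tff3 lowest in fat-1 EtOH replicates 3 and 4 on the right, whereas WT EtOH replicate 2 sits with the other libraries, and Clca1 is not highest on the right.

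Clca1, a secreted metalloprotease that processes the mucus gel, was an abundant product whose EtOH mice lay above the PF mice of the same genotype in both genotypes. The difference passed the test in fat-1 mice and in the average of both genotypes. It measured 2091, 2149, 2594 and 2546 CPM in WT PF mice and 4936, 3178 and 4361 CPM in WT EtOH mice, without overlap. In fat-1 mice it measured 1986, 852, 2411 and 1014 CPM with PF and 4619, 4408, 2838, 2508 and 3141 CPM with EtOH, again without overlap. The lowest 2 values were again fat-1 PF replicates 2 and 4, and within the fat-1 EtOH group replicates 3 and 4 were the lowest. In fat-1 mice the log2 fold change was 1.16 ± 0.30 (SE; adjusted p = 0.00825, edgeR; exact permutation p = 0.0159, the smallest that 5 against 4 mice allow). It was 1.40 ± 0.31 (adjusted p = 0.00614) without fat-1 EtOH replicates 3 and 4, and 0.68 ± 0.28 (adjusted p = 0.111) without fat-1 PF replicates 2 and 4. In WT mice it was 0.83 ± 0.33, which did not pass the threshold over all genes (adjusted p = 0.290), although limma voom called it (0.93 ± 0.23, adjusted p = 0.0132), as did edgeR on the compared groups alone (0.84 ± 0.16, adjusted p = 0.0216). The exact permutation p there was 0.0571, the smallest that 3 against 4 mice allow. Averaged over both genotypes Clca1 was 1.99 times as high with EtOH (log2 fold change 0.99 ± 0.22, adjusted p = 0.00387), and this average passed the threshold without all 5 libraries as well (0.95 ± 0.14, adjusted p = 0.00192).

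Retnlb encodes RELM-beta, a cysteine-rich secreted protein that acts on bacteria and whose expression is known to depend on the microbiota and on type 2 cytokines. It was at the limit of detection in PF mice, with 17, 5, 2 and 12 counts in WT PF and 2, 0, 5 and 0 counts in fat-1 PF libraries. These are 1.86, 0.566, 0.222 and 1.25 CPM and 0.212, 0, 0.683 and 0 CPM, where a count of 0 allows up to 0.421 CPM in replicate 2 and 0.368 CPM in replicate 4 of fat-1 PF (3 counts per library, counting error only). In WT EtOH mice it measured 8.42, 36.6 and 8.65 CPM, and in fat-1 EtOH mice 5.89, 1.19, 70.3, 62.2 and 6.50 CPM.

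Every EtOH mouse was above every PF mouse of the same genotype in Retnlb, although fat-1 EtOH replicate 2 (1.19 CPM) lay within the range of WT PF. In fat-1 mice the log2 fold change was 6.98 ± 1.47 (SE; adjusted p = 0.00282, edgeR), a size that depends on how the fit treats counts near 0. The exact permutation p was 0.0159. From pooled counts, 1706 in fat-1 EtOH against 7 in fat-1 PF libraries, the ratio of levels was 136, with a 95% exact interval of 65.9 to 339 that covers counting error only and not the spread between mice. Without fat-1 EtOH replicates 3 and 4 the pooled ratio was 20.5 (9.70 to 51.8) and the fitted value 4.31 ± 1.04 (adjusted p = 0.00975). The call was lost without fat-1 PF replicates 2 and 4 (6.06 ± 1.93, adjusted p = 0.0549) and with limma voom (5.28 ± 2.63, adjusted p = 0.152). In WT mice the pooled ratio was 17.0 (12.2 to 24.6), with 349 of 546 counts in WT EtOH replicate 2. Without that library it was 8.68 (6.06 to 12.8) and the fitted value 3.11 ± 1.27 (adjusted p = 0.321), the ratios without libraries being chosen after the data were seen. With all libraries the fitted value of 4.17 ± 1.23 did not pass the threshold (adjusted p = 0.188). It passed when fat-1 EtOH replicates 3 and 4 were left out of the fit (4.18 ± 0.79, adjusted p = 0.0301). Averaged over both genotypes the value was 5.57 ± 0.96 (adjusted p = 9.1e-04), and 3.25 ± 0.59 (adjusted p = 0.00430) without all 5 libraries that stood apart. The EtOH responses of the 2 genotypes differed by 2.81 ± 2.10 in the interaction test (adjusted p = 0.662).

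Zg16, a lectin that binds the cell wall of Gram-positive bacteria, was lower with EtOH in fat-1 mice, opposite to Clca1. It measured 3521, 4288, 3871 and 2925 CPM in WT PF mice and 2747, 3275 and 2813 CPM in WT EtOH mice, which overlapped. In fat-1 mice it measured 3588, 3997, 5466 and 4374 CPM with PF and 3065, 3311, 2667, 2926 and 2587 CPM with EtOH, without overlap. In fat-1 mice Zg16 fell by 0.58 on the log2 scale (SE 0.16; adjusted p = 0.0123, edgeR) and in the average of both genotypes by 0.45 (SE 0.12; adjusted p = 0.0125). The exact permutation p in fat-1 mice was 0.0159. Without fat-1 EtOH replicates 3 and 4 it fell by 0.51 in fat-1 mice (SE 0.17; adjusted p = 0.0377). The difference was -0.63 ± 0.21 (adjusted p = 0.0586) without fat-1 PF replicates 2 and 4 and -0.56 ± 0.20 (adjusted p = 0.0670) with the compared groups alone. The lowest value was that of fat-1 EtOH replicate 5, the library with the high B-cell follicle sum. Without it the difference was -0.53 ± 0.18 in fat-1 mice (adjusted p = 0.0313) and -0.41 ± 0.13 in the average (adjusted p = 0.0240), both still called. The WT value was -0.31 ± 0.19 (adjusted p = 0.460). With libraries scaled to 10 genes of all epithelial cells in place of all genes, the fat-1 difference was -0.26 (adjusted p = 0.235), so this call depends on what the level is relative to. In the average of both genotypes 2 members were called with this scaling, beside 3957 of 13811 genes, against 3 members with all genes.

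Tff3, a trefoil peptide of mucosal repair, measured 1355, 1571, 1350 and 1156 CPM in WT PF and 1195, 1298, 1976 and 1343 CPM in fat-1 PF mice. It measured 1098, 1213 and 1256 CPM in WT EtOH and 1333, 1293, 656, 710 and 1044 CPM in fat-1 EtOH mice. The 2 lowest values were those of fat-1 EtOH replicates 3 and 4, the libraries in which Spdef was highest. The EtOH difference was -0.53 ± 0.22 in fat-1 mice (adjusted p = 0.0696) and -0.19 ± 0.25 in WT mice (adjusted p = 0.769), and neither passed the threshold of edgeR. The difference in fat-1 mice was -0.22 ± 0.17 (adjusted p = 0.349) without fat-1 EtOH replicates 3 and 4. With all libraries DESeq2 called Tff3 lower in fat-1 mice (-0.53, adjusted p = 0.0448), and limma voom did not (-0.28 ± 0.19, adjusted p = 0.294).

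Fcgbp, a large mucus protein with von Willebrand factor D domains, was lowest in the same 2 libraries. It measured 3219, 3790, 3277 and 2993 CPM in WT PF, 3619, 3397, 3538 and 3356 CPM in fat-1 PF and 3932, 4147 and 4239 CPM in WT EtOH mice. In fat-1 EtOH mice it measured 3756, 3965, 2151, 2113 and 3023 CPM. All 3 WT EtOH mice were above the 4 WT PF mice, with a log2 fold change of 0.31 ± 0.21 that did not pass the threshold (adjusted p = 0.533). In fat-1 mice the difference was -0.21 ± 0.19 (adjusted p = 0.386), and it turned to 0.07 ± 0.13 (adjusted p = 0.699) without replicates 3 and 4.

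Spink4, a Kazal-type serine protease inhibitor, had the smallest difference between diets of the 8 genes over both genotypes (-0.01 ± 0.15 on the log2 scale, adjusted p = 0.954, edgeR). It measured 530, 672, 469 and 437 CPM in WT PF, 467, 274, 632 and 407 CPM in fat-1 PF and 498, 496 and 505 CPM in WT EtOH mice. In fat-1 EtOH mice it measured 509, 446, 476, 506 and 369 CPM, so that fat-1 EtOH replicates 3 and 4 did not stand out. The EtOH difference was 0.05 ± 0.20 in fat-1 mice (adjusted p = 0.851; 95% interval -0.37 to 0.47) and -0.08 ± 0.22 in WT mice (adjusted p = 0.904; 95% interval -0.55 to 0.40).

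**Figure D3:**
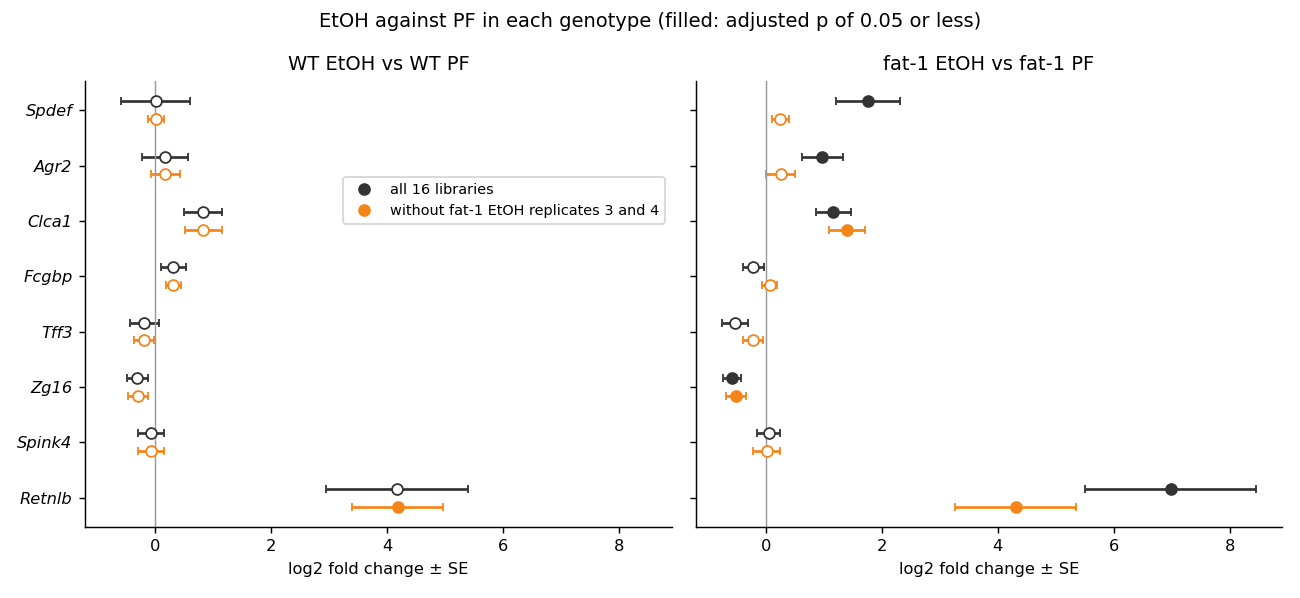
Log2 fold change of EtOH against PF (x axes, with the SE as bars) for the 8 genes in WT mice (left) and fat-1 mice (right), fitted with all 16 libraries and without fat-1 EtOH replicates 3 and 4; filled points have an adjusted p of 0.05 or less. In fat-1 mice the differences of Spdef and Agr2 shrink to 0.25 and 0.26 without those 2 libraries, while Clca1, Zg16 and Retnlb keep their calls.

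Counted over the members, 4 genes rose (Retnlb, Clca1, Agr2 and Spdef) and 1 fell (Zg16) in fat-1 mice with EtOH at an adjusted p of 0.05 or less, and Tff3 was the sixth with an unadjusted p under 0.05. In that comparison 37.4% of all 13811 genes tested were called, so that 5 of 8 is to be read against a broad difference between these groups. DESeq2 called 6 members, these 5 and Tff3, and 40.3% of all genes, and limma voom called 2 (Clca1 and Zg16) and 26.4%. With the compared groups alone edgeR called 2 (Retnlb and Clca1) and 23.2% of all genes. The median log2 fold change was 0.51 over the members and 0.05 over all genes. Retnlb, Clca1 and Zg16 (3 members) had groups that did not overlap, as did 24% of all genes. Without fat-1 EtOH replicates 3 and 4, 3 members were called (Retnlb, Clca1 and Zg16), as were 30.8% of all genes tested there, and the same 3 when WT EtOH replicate 2 was left out as well, beside 29.7%. Without all 5 libraries 2 were called (Retnlb and Clca1) beside 11.9% of all genes. Without fat-1 PF replicates 2 and 4 none was called by edgeR, with 4 at an unadjusted p under 0.05, beside 13.9% of all genes.

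Between WT EtOH and WT PF mice edgeR called no member, as against 0.0796% of all genes (11 genes), and 2 members had an unadjusted p under 0.05 (Retnlb and Clca1). DESeq2 called 1 (Retnlb) and 2.11% of all genes, and limma voom with sample weights called 3 (Retnlb, Clca1 and Zg16) and 20.3%. With the compared groups alone edgeR called 2 (Retnlb and Clca1) beside 8.32% of all genes. Without fat-1 EtOH replicates 3 and 4 it called 1 (Retnlb) beside 2.01%, and without all 5 libraries 2 (Retnlb and Clca1) beside 3.41%. Retnlb, Clca1 and Fcgbp had groups that did not overlap, and so did 24.3% of all genes. The median was 0.09 over the members and 0.01 over all genes. In the average of both genotypes Retnlb and Clca1 rose and Zg16 fell, where 35.9% of all genes were called, and the median was 0.31 over the members and 0.04 over all genes.

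Genotype alone moved no member past the threshold. In the PF groups, fat-1 against WT, edgeR called 0 members and 0% of all genes (1758 genes had an unadjusted p under 0.05, DESeq2 called 189 and limma voom 31), no member had an unadjusted p under 0.05, and neither DESeq2 nor limma voom called a member. No member had groups without overlap, against 6.87% of all genes. The largest differences were those of Retnlb (-2.10 ± 1.86, adjusted p = 0.699, from at most 17 counts a library) and Clca1 (-0.58 ± 0.31, adjusted p = 0.460). The members' median was -0.23, against 0.02 over all genes.

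In the EtOH groups, fat-1 against WT, edgeR called 0 members and 0.00724% of all genes (1 gene), and neither DESeq2 nor limma voom called a member. Spdef (1.49 ± 0.59, unadjusted p = 0.0247, edgeR) and Fcgbp (-0.45 ± 0.20, unadjusted p = 0.0426, edgeR) were under 0.05 before adjustment, with an adjusted p of 0.757 each. Without fat-1 EtOH replicates 3 and 4 the value of Spdef was -0.05. Fcgbp was lowest in that pair (2151 and 2113 CPM), against 3023 to 3965 CPM in the other fat-1 EtOH and 3932 to 4239 CPM in WT EtOH mice. No member had groups without overlap, against 2.45% of all genes. In the test of the interaction of genotype and diet, edgeR called 0 members and 0% of all genes (1141 genes had an unadjusted p under 0.05), 1 member (Spdef) had an unadjusted p under 0.05, and DESeq2 and limma voom called no gene.

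On a scale that allows comparison between genes, CPM per kb of exon, the order over 16 libraries was Zg16 (2756 ± 621, SD, n = 16), Tff3 (2516 ± 618), Spink4 (1008 ± 194), Clca1 (755 ± 321), Agr2 (512 ± 270), Fcgbp (325 ± 59.2), Spdef (18.5 ± 20.5) and Retnlb (18.4 ± 32.7). Zg16 and Tff3 differed by less than the SD of either, as did Clca1 and Agr2, and Spdef and Retnlb. This order did not hold within each group. In WT EtOH mice Tff3 (2411 ± 166) was beside Zg16 (2343 ± 229, SD, n = 3), and Clca1 (1101 ± 237) beside Spink4 (1048 ± 9.74). Retnlb was at 0.322 to 1.40 and Spdef at 10.1 to 12.1 as means of the PF groups, while in fat-1 EtOH mice they were at 42.0 ± 48.8 and 34.2 ± 33.6 (SD, n = 5). Clca1 and Fcgbp, which took the most counts together with Zg16, have exon lengths of 3777 and 10497 bases, against 477 for Spink4.

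The make-up of the 8 products on this scale differed between diets and between libraries. Zg16 made up 33.2% to 44.5% and Tff3 31.6% to 36.8% in PF libraries. In EtOH libraries other than fat-1 EtOH replicates 3 and 4 these were 28.2% to 33.2% and 29.2% to 32.9%. Clca1 made up 3.15% to 9.61% in the 8 PF libraries and 9.72% to 17.1% in the 8 EtOH libraries. The level of Clca1 relative to that of Tff3, in CPM, was 0.656 to 2.20 in PF and 2.62 to 4.50 in EtOH libraries, and fat-1 EtOH replicates 3 and 4 (4.33 and 3.53) lay within the latter range. Agr2 made up 18.9% in replicate 3 and 14.7% in replicate 4 of fat-1 EtOH, against 2.90% to 6.83% elsewhere, and Tff3 19.3% and 21.1% in the same pair. Zg16 made up 30.7% and 34.1% in that pair, the latter within the PF range. These shares add up to a whole, so that a rise in one lowers the others.

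**Figure D4:**
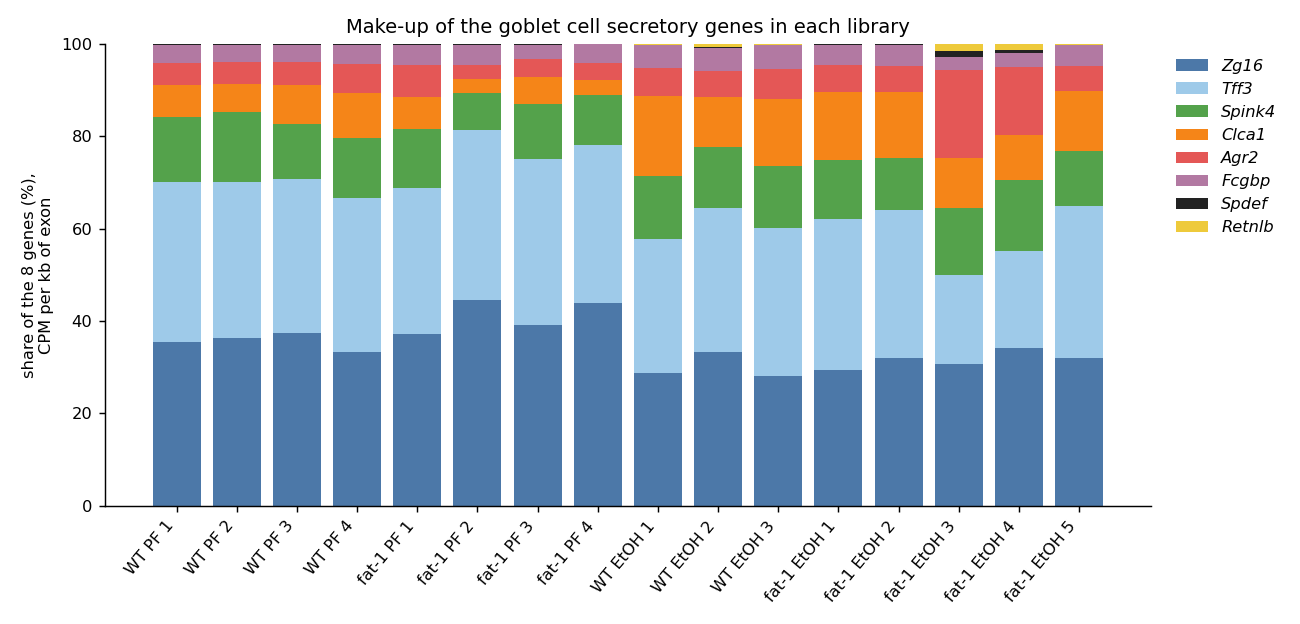
Share of each gene in the sum of the 8 (y axis, percent of CPM per kb of exon) in each library (x axis). Zg16 and Tff3 are the largest parts in every library, Clca1 takes a wider band in all EtOH than in all PF libraries, and Agr2 takes 18.9% and 14.7% in fat-1 EtOH replicates 3 and 4.

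The regulators of the goblet cell programme were taken from a list of 12 genes that includes Spdef itself. Between fat-1 EtOH and fat-1 PF mice, 6 of 12 rose (Atoh1, Foxa1, Creb3l1, Creb3l4, Ern2 and Spdef) and 1 fell (Xbp1), with a median of 1.08. Of all genes 37.4% were called in that comparison, with a median of 0.05. Creb3l1, a membrane-bound transcription factor of the secretory pathway, changed most (1.90 ± 0.48, adjusted p = 0.00781), and Xbp1, a factor of the unfolded protein response, was lower by 0.42 (SE 0.13; adjusted p = 0.0254). Atoh1, the factor of the secretory lineage, measured 87.3 and 69.4 CPM in fat-1 EtOH replicates 3 and 4 and 13.3 to 28.6 CPM elsewhere. Without those 2 libraries 3 were called, all higher (Creb3l1, Ern2 and Foxa1), and without fat-1 PF replicates 2 and 4, or without all 5, none. The shares of all genes called in these fits were 30.8%, 13.9% and 11.9%. With limma voom 2 were called, Ern2 and Foxa1, beside 26.4% of all genes. The calls of Creb3l1 and Xbp1 were thus lost, and Xbp1 was also not called with upper-quartile or epithelial scaling. In WT mice with EtOH none was called with all libraries by edgeR, DESeq2 or limma voom, or was at an unadjusted p under 0.05 (edgeR). These tools called 0.0796%, 2.11% and 20.3% of all genes there.

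Among 17 tested of 18 other goblet cell genes, 9 rose between fat-1 EtOH and fat-1 PF mice and none fell, with a median of 0.98. Of all genes 37.4% were called there, with a median of 0.05. The largest fitted value was that of Best2, a bicarbonate channel of colonic goblet cells (6.05 ± 2.21, adjusted p = 0.0443), a call that neither DESeq2 nor limma voom made. Limma voom called 3 genes of the list (Lypd8, Muc2 and Sytl2) and DESeq2 10, all higher, beside 26.4% and 40.3% of all genes. Best2 measured 5.49 and 8.83 CPM in fat-1 EtOH replicates 3 and 4, 1.99 CPM in WT EtOH replicate 2 and at most 0.219 CPM elsewhere. It passed the filter on low counts through those EtOH libraries alone, so that neither its size nor its call can be ranked with the others. The smallest called change was that of Kcnk6, a potassium channel (0.83 ± 0.24, adjusted p = 0.0137). Muc2, the gel-forming mucin, measured 596 to 1262 CPM in PF, 1299 to 2023 CPM in 6 EtOH libraries and 8164 and 7544 CPM in fat-1 EtOH replicates 3 and 4. Without those 2 libraries Galnt12, Muc2 and Sytl2 were called, all higher, and without fat-1 PF replicates 2 and 4, or without all 5 libraries, none was. The shares of all genes called in these fits were 30.8%, 13.9% and 11.9%. In WT mice edgeR and DESeq2 called none of this list (0 had an unadjusted p under 0.05 by edgeR), and limma voom called Kcnk6, Muc2 and Sytl2 higher, beside 20.3% of all genes.

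Relatives of the members moved in both directions. Of 20 listed, 11 were tested, and 2 rose (Ehf and Retnla) and 2 fell (Clca3a1 and Spink1) between fat-1 EtOH and fat-1 PF mice. These calls are close to the 37.4% of all genes called there. Ehf, an epithelial ETS factor like Spdef, rose by 1.55 ± 0.37 (adjusted p = 0.00579), while Elf3 was at -0.25 ± 0.19 (adjusted p = 0.317). Of the resistin family, Retnla was higher by 1.41 ± 0.52 (adjusted p = 0.0443) and Retn stood at 1.42 ± 0.54 (adjusted p = 0.0535). Of the Clca family, Clca3a1 fell by 1.44 (SE 0.31; adjusted p = 0.00338), whereas Clca3a2 (-0.60 ± 0.36), Clca3b (0.14 ± 0.30), Clca4a (-0.29 ± 0.48) and Clca4b (-0.94 ± 0.96) were not called. Clca4b measured 1696 to 3739 CPM in 14 libraries and 19.4 and 18.5 CPM in fat-1 EtOH replicates 3 and 4. Spink1, a trypsin inhibitor, fell by 1.99 (SE 0.49; adjusted p = 0.00633), unlike Spink4. Agr3 was at -0.71 ± 0.54 (adjusted p = 0.311). The call of Retnla was lost with limma voom and without fat-1 EtOH replicates 3 and 4. Without fat-1 PF replicates 2 and 4 the call of Clca3a1 alone was left, and without all 5 libraries that of Spink1 alone, beside 13.9% and 11.9% of all genes. In WT mice neither edgeR nor DESeq2 called a relative, and 1, Clca3a1, had an unadjusted p under 0.05 (-1.09 ± 0.37, adjusted p = 0.221, edgeR), while limma voom called 2 lower (Clca3a1 and Spink1). Limma voom called 20.3% of all genes there.

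The upstream type 2 cytokine axis was measured through 7 tested genes of 13. Il4, Il5, Il9, Il13 and Il25 were at 0 to 0.491 CPM in all libraries and were not tested. Between fat-1 EtOH and fat-1 PF mice none rose and 3 fell (Il33, Il13ra1 and Stat6), with Il33, an epithelial and stromal alarmin, lower by 2.45 (SE 0.42; adjusted p = 9.01e-04) and Stat6 by 0.33 (SE 0.13; adjusted p = 0.0484). Counts of this and the next 2 lists stand beside 37.4% of all genes called. The share was 30.8% without fat-1 EtOH replicates 3 and 4, 13.9% without fat-1 PF replicates 2 and 4 and 11.9% without all 5 libraries. The call of Stat6 was lost with limma voom, with upper-quartile and epithelial scaling and without fat-1 EtOH replicates 3 and 4. Il33 alone was called lower without fat-1 PF replicates 2 and 4, and without all 5 libraries no gene of the axis was. Il33 measured 13.5 to 66.0 CPM in PF and 4.43 to 19.5 CPM in EtOH libraries. Of the Notch pathway, whose ligands restrain the secretory lineage, Notch2 rose by 0.99 and Dll1 fell by 1.67 on the log2 scale among 10 tested. Of 15 endoplasmic reticulum folding and stress genes none rose, and Atf4 and Ddit3 fell by 0.69 and 0.74. These 4 genes were also called without fat-1 EtOH replicates 3 and 4, with Hes1 lower in addition, while without fat-1 PF replicates 2 and 4, or without all 5 libraries, those called were Dll1 and Atf4. Notch2 was not called with limma voom, and neither Atf4 nor Ddit3 with epithelial scaling. In WT mice edgeR called no gene of these 3 lists, and 1 gene of each had an unadjusted p under 0.05. DESeq2 called Il33 lower there, and limma voom Il33, Il13ra1, Dll1 and Atf4.

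Genes of other cell types in the tissue were counted in the same way between fat-1 EtOH and fat-1 PF mice, where edgeR called 37.4% of all genes. That share was 30.8% without fat-1 EtOH replicates 3 and 4, 13.9% without fat-1 PF replicates 2 and 4 and 11.9% without all 5 libraries. In WT mice edgeR called 0.0796%, DESeq2 2.11% and limma voom 20.3% of all genes. None of 7 Paneth cell genes was called by edgeR, DESeq2 or limma voom or had an unadjusted p under 0.05, and none of 6 crypt stem cell genes was called by edgeR, with 2 under 0.05 before adjustment and Lgr5 called higher by limma voom. Of 8 tuft cell genes 2 rose, Dclk1 by 0.95 and Pou2f3 by 0.89 on the log2 scale. Of 11 enteroendocrine genes 1 rose (Gcg, 0.96) and 2 fell, Cck the most (-3.29). Of 9 absorptive enterocyte genes none rose and 5 fell, from -1.93 for Alpi to -6.81 for Apoa4, and of 11 genes of all epithelial cells 2 rose, Krt19 the most (0.59), and 2 fell, Vil1 the most (-0.88). All 8 smooth muscle genes rose, by 0.70 (Lmod1) to 1.81 (Cnn1), and 1 of 10 proliferation genes fell (Pcna, -0.24). None of 9 B-cell follicle genes was called by any of these tools or had an unadjusted p under 0.05. Of the position lists, 8 of 9 proximal small intestine genes fell, from -2.86 for Fbp1 to -10.83 for Lct. Of 10 large intestine genes 6 rose, from 1.64 for Mettl7b to 10.38 for Car1, and of 7 bile acid genes 1 rose (Nr1h4, 1.16). All 8 smooth muscle genes and 8 proximal genes were called as before without fat-1 EtOH replicates 3 and 4, and 7 absorptive genes were lower. In that fit 4 B-cell follicle genes (Cd79b, Cxcr5, Fcer2a and Pax5) were called higher, and Pcna, Nr1h4, Krt19 and Vil1 were not called. Without fat-1 PF replicates 2 and 4 the calls were 8 smooth muscle, 7 proximal, 2 absorptive, 2 tuft and 2 enteroendocrine genes, and no large intestine gene. Without all 5 libraries they included 7 smooth muscle, 6 proximal, 5 absorptive, 5 tuft and 2 enteroendocrine genes. Limma voom did not call Car1. In WT mice the only calls of these lists by edgeR with all libraries were 2 proximal genes that fell, Gata4 (-7.38) and Lct (-10.70). DESeq2 called 5 proximal genes lower there (these 2, Fabp1, Slc2a2 and Slc5a4b), Apoa4 and Fabp2 lower, and Myh11 higher. By limma voom 8 of 8 smooth muscle, 6 of 8 tuft and 4 of 10 proliferation genes were called higher in WT mice, and 5 of 9 proximal and 3 of 9 absorptive genes lower, beside Gcg, Krt18 and Muc3 higher and Krt20 lower. The part of all these lists in the members' levels was not tested.

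The genes whose pattern over 16 libraries was most like that of a member were ranked by the root mean square difference of centred log2 CPM over all tested genes. For Spdef these were Bace2 (0.22), Slc35a1 (0.24), Tpd52l1 (0.25), Hgfac (0.26) and Car8 (0.27), against a median of 0.91 over all genes. For Agr2 they were Grhl2 (0.15), Kcnk1 (0.17), Auts2 (0.18), C1galt1 (0.18) and Orc1 (0.19), against 0.67. For Clca1 they were Atp2b1 (0.21), Ybx2 (0.23), Itpr2 (0.24), Ptprd (0.24) and Ptprj (0.24), against 0.76. For Retnlb they were Fa2h (0.93), 1810065E05Rik (1.04), Ildr1 (1.05), Fut2 (1.05) and Hao2 (1.10), against 2.70. No member was among the 5 nearest of another. Fcgbp, Tff3, Zg16 and Spink4 varied by an SD of only 0.29 to 0.37 over the libraries, the distance at which a flat line would lie, and their nearest were Ctnna1 (0.14), Skp1a (0.11), Tmem9b (0.09) and Ybx3 (0.17).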

How the data were processed

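Poly(A) RNA of the terminal ileum was sequenced from stranded libraries, 1 per mouse. The authors aligned reads with tophat2 to mm10, and the deposited values are raw counts per Ensembl gene, labelled as made with htseq. The strand setting of the counting is not given in the sources used here. Symbols, positions and exon lengths were taken from GENCODE M21 (26 of 21965 genes are absent from it).

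Genes were filtered with filterByExpr (13811 tested), scaled with TMM and fitted with the quasi-likelihood test of edgeR 4.0.16 (R 4.3.3) with 1 mean per group over all 16 libraries, adjusted by Benjamini-Hochberg over all genes tested at 0.05. The study's own test (cuffdiff2) needs aligned reads and was not used here. CPM use TMM-scaled library sizes. Single genes were compared with a two-sided exact permutation test on log2(CPM + 0.5), and likeness used a prior count of 2. The scripts were tested on simulated data. The labels number replicates without naming animals and the study gives them as mice, so that p-values measure the spread between these libraries, which held 8422645 to 11438539 counts. Alternatives were DESeq2 1.42.0, limma 3.58.1 voom, other scalings and filters, a replicate block, the compared groups alone, and leaving out libraries.

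The members and lists were chosen with earlier results of these data known. Named are all members, from each list the called genes with the largest and the smallest change in fat-1 or WT mice, every relative of a member that was tested, and the 5 genes most like a member. The other genes named were chosen after their values were seen. Lists were goblet cell regulators, other goblet cell genes, relatives of the members, type 2 cytokine axis, Notch pathway, endoplasmic reticulum folding, Paneth, tuft, enteroendocrine, absorptive, stem and all epithelial cells, proliferation, B-cell follicle, smooth muscle, and genes of ileal bile acid handling, proximal small intestine and large intestine.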

Additional observations from a re-analysis of the deposited data

How the results depend on the processing

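The limits are the few mice per group, the 5 libraries that stood apart in position genes, and Retnlb counts near 0 in PF mice. Of the fitted differences of members under alternatives, 1252 kept direction and side of the threshold, 35 lost and 16 gained a call, and 66 turned direction. The cause was not tested for any of these. For groups scaled to epithelial genes the median of all genes shifts by 0.39 in fat-1 mice, and by 0.20 with upper-quartile scaling.

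In WT mice the count of members called was 0 (shares of all genes called stand beside these counts in the results above, except for fits without 1 library), and it was 1 with DESeq2, 3 with limma voom and 2 with the compared groups alone. It was 1 without fat-1 EtOH replicates 3 and 4 and 2 without all 5 libraries, both chosen after seeing the data. In fat-1 mice the count was 5, and it was 6 with DESeq2, 2 with limma voom, 2 with the compared groups alone, 3 without fat-1 EtOH replicates 3 and 4 and WT EtOH replicate 2, and 0 without fat-1 PF replicates 2 and 4. It was 3 without fat-1 EtOH replicates 3 and 4 and 2 without all 5 libraries. Leaving out 1 library at a time gave 3 to 6 in fat-1 mice, with 3 without fat-1 PF replicate 2, fat-1 PF replicate 4 or fat-1 EtOH replicate 3. It gave 3 to 5 in the average of both genotypes, with 5 without fat-1 EtOH replicate 5, and 0 in the other comparisons. The share of all genes called is not given for these fits, so these counts cannot be read against it. Retnlb, Clca1 and Zg16 were called in 16 of 16 of these fits in fat-1 mice, Spdef in 13 and Agr2 in 4.

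Replicate numbers did not pair the mice (mean correlation of same-numbered deviations -0.0225, of others 0.00703). With the replicate block 5 members were called in fat-1 mice, 3 in the average and 0 in the other 4 comparisons. Of 13811 genes tested, those called were 4748 in fat-1 mice, 4836 in the average and 18 in WT mice. In both comparisons of genotype and in the interaction 0 genes were called.

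The directions that turned were those of differences that were not called, except that of Agr2 in fat-1 mice (-0.16 without all 5 libraries). For PF mice by genotype, Agr2 was 0.19 and Spink4 0.052 without fat-1 PF replicates 2 and 4, and without all 5 libraries 0.19 and 0.048. In WT mice Spdef was -0.0098 with limma voom, and Spink4 0.067 with epithelial scaling. In fat-1 mice Fcgbp was 0.037 with epithelial scaling, 0.0702 without the 3 EtOH libraries, 0.071 without fat-1 EtOH replicates 3 and 4, and 0.015 without all 5. Spink4 there was -0.25 without fat-1 PF replicates 2 and 4 and -0.30 without all 5.

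For EtOH mice by genotype, Retnlb was -1.02 with limma voom, -0.015 with the block, -0.92 without the 3 EtOH libraries, -1.995 without fat-1 EtOH replicates 3 and 4 and -0.93 without all 5. With epithelial scaling Clca1 was 0.026, Tff3 0.016, Zg16 0.31 and Spink4 0.24. Without the 3 EtOH libraries, without fat-1 EtOH replicates 3 and 4 and without all 5, Tff3 was 0.055, 0.036 and 0.049, Zg16 0.10, 0.014 and 0.096, Agr2 -0.20, -0.15 and -0.20, and Spdef -0.078, -0.055 and -0.084. Zg16 was also 0.082 with limma voom, 0.019 with upper-quartile scaling, 0.063 with the block and 0.0041 with the groups alone. In the average, Fcgbp was -0.0059 with the block, and Spink4 0.058 with limma voom, 0.087 with upper-quartile and 0.25 with epithelial scaling, 0.017 with at least 10 counts in every library and 0.014 with the block. For the interaction, without fat-1 PF replicates 2 and 4 Clca1 was -0.15 and Spink4 -0.18, and without all 5 Clca1 was -0.10, Agr2 -0.39, Spdef -0.0076 and Spink4 -0.24.

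Leaving out 1 library at a time also turned some directions. Ranges were -0.10 to 0.17 for Tff3 in PF mice by genotype, -0.065 to 0.049 for Spdef and -0.16 to 0.069 for Spink4 in WT mice, -0.11 to 0.28 for Spink4 in fat-1 mice, -0.068 to 0.063 for Zg16 in EtOH mice by genotype, -0.013 to 0.11 for Fcgbp and -0.090 to 0.11 for Spink4 in the average, and -0.040 to 0.35 for Spink4 in the interaction.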
